A study of Mus musculus with 17 samples.

Results

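Aire, the autoimmune regulator, does not work alone, and 9 genes whose protein products have been reported to help it in transcription or to modify it were followed here across medullary thymic epithelial cells of 2 ages. They were Top1, Prkdc, Parp1, Xrcc5, Xrcc6, Sirt1, Mbd1, Atf7ip and Hipk2. Each gene was read from the probe set that the platform annotation ties to its symbol alone, and where a gene had several, from the one with the highest mean over all 17 arrays. All 9 were found among the 19752 genes named this way, and all 9 were among the 13842 genes bright enough to be tested.

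Aire drives ectopic transcription of tissue-restricted antigens in mature medullary thymic epithelium, so that developing T cells meet them. DNA topoisomerase I (Top1) and the DNA damage proteins DNA-PK and PARP1 have been described at Aire-induced loci. Sirt1 is described as the deacetylase that acts on Aire, the Atf7ip and Mbd1 complex as a bridge to methylated, silent chromatin, and Hipk2 as a kinase of Aire. These interactions concern proteins, while the arrays measured RNA.

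The study profiled RNA of sorted epithelial cells (CD45-, Ly51-, MHCIIhi) from Adig mice, C57BL/6 animals in which an Igrp-GFP reporter is driven by Aire, on Affymetrix Mouse Gene 1.0 ST arrays. All 6 groups carry that reporter, so GFP marks cells in which the Aire locus is active, in Aire-deficient mice too. The wild type (WT) groups were GFP- cells of adults (3 samples, numbered 6, 7 and 8), GFP+ cells of adults (3 samples, 6, 7 and 8), GFP- cells of perinates (2 samples, 1 and 2) and GFP+ cells of perinates (3 samples, 5, 6 and 7). The Aire knockout (KO) groups were GFP+ cells of adults (3 samples, 1, 2 and 3) and of perinates (3 samples, 1, 2 and 3). Adults were 5 weeks old, and perinates 3 days old by the sample labels but 0 to 3 days by the series text. The labels give every sample as mixed sex and do not say whether samples were separate animals or pools. The p-values therefore cover only the variation among the samples as collected, part of which may be technical. Values are deposited RMA intensities on a linear scale, compared on the log2 scale with limma, and a gene was called at a Benjamini-Hochberg adjusted p under 0.05 over the 13842 genes. Levels of different probe sets are not comparable, so genes are compared only in how they differed between groups.

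Aire read between 4094 and 6196 on the GFP+ arrays of WT mice and at similar levels in the KO groups, with no call for KO against WT (adjusted p = 0.931 in adults and 0.661 in perinates, limma). Its transcript level therefore does not check the knockout label. In GFP- cells it lay at 494.9 to 930.1 in adults and 270 to 351 in perinates. G6pc2, the transcript of the Igrp reporter, read 1452 to 1725 in adult GFP- cells and 253.9 and 429.1 in perinate GFP- cells. The GFP effect differed between ages for G6pc2 (2.01 log2, adjusted p = 9.85e-06, limma) and for Aire (1.03, adjusted p = 0.0255). GFP+ against GFP- was thus not the same contrast in reporter and Aire transcript at the 2 ages. Epcam, H2-Aa and Krt5, from the list of medullary epithelial markers, were bright in all groups. Several markers of that list were lower in perinate GFP- than perinate WT GFP+ cells. Fezf2 read 464.1 to 470.7 against 2270 to 3417, Cd80 384.3 to 671 against 3419 to 3706, and Tnfrsf11a 496.2 to 594.8 against 1475 to 1634. Krt5 and Krt14 of the same list went the other way. Krt5 read 5300 to 5415 against 1810 to 4928, and Krt14 3327 to 3414 against 1083 to 2629. Of the 10, 7 were called higher and 1 lower in those GFP+ cells (23% and 20.5% of all genes). In perinate GFP- cells the medullary marker Cd86 lay below the 40th percentile of its array on both arrays (47.31 and 47.68). The cortical marker Psmb11 read 313.1 and 383.1 there, against 88.9 to 129.7 in the other groups. Ccl25, on the cortical list too, was lower there, at 1263 and 1593 against 3561 to 5032 in perinate WT GFP+ cells. Perinate KO arrays 2 and 3 stood apart in the Y-linked gene Uty, at 19.24 and 16.14 against 168.9 to 366.2 on the other 15, although all samples are labelled mixed sex. The X-linked gene Xist was highest on the same arrays, at 5203 and 5167 against 2104 to 4509 on the other 15. The part of sex in the perinate KO results was not tested. Member calls that rest on that group are given with and without these 2 arrays, as are results of most lists. The remaining array is then assumed to vary like the other groups.

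Promoters are shown for the pair of members called higher in GFP+ than in GFP- cells at both ages (Sirt1 and Parp1). They are also shown for the pair that form Ku and were called higher in perinate KO cells (Xrcc5 and Xrcc6). RefSeq promoter entries (GRCm38.p6) matched 7 of the 9 members, with 8 entries, since Hipk2 has 2. Mbd1 and Prkdc had none. Each stretch below is the 250 bases before the transcript start that the table uses, 5′ to 3′ on the gene's strand, with matches to GGGCGG or CCAAT on either strand in capitals. They lie at chr10:63339036-63339285 on the minus strand for Sirt1, and on the plus strand at chr1:180568641-180568890 for Parp1, chr1:72307171-72307420 for Xrcc5 and chr15:82016119-82016368 for Xrcc6. The Xrcc6 stretch lies inside the span that RefSeq gives the whole gene, whose first transcript starts farther upstream, and the Xrcc5 stretch overlaps the gene's first annotated bases.
Sirt1: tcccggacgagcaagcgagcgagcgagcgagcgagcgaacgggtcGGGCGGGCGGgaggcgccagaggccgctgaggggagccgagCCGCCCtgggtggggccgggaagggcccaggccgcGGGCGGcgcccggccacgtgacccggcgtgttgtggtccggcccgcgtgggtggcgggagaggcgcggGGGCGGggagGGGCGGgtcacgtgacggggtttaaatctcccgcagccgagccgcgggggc
Parp1: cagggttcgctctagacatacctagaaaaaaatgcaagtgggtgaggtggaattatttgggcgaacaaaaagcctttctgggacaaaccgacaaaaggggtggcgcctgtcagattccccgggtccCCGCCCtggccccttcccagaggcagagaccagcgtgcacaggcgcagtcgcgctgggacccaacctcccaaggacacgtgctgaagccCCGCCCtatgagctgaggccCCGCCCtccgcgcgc
Xrcc5: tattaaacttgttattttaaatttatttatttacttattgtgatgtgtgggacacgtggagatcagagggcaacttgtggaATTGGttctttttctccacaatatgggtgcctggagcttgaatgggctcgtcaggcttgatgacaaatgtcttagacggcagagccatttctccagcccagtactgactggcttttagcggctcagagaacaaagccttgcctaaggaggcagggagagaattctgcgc
Xrcc6: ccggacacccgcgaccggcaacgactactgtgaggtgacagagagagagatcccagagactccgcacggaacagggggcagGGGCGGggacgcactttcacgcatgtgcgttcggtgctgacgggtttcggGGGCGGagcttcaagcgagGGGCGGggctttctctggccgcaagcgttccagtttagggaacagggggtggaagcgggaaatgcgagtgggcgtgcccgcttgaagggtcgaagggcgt
GGGCGG occurred 6 times before Sirt1, where 2 of the matches overlap, 3 times before Parp1, 3 times before Xrcc6 and 0 times before Xrcc5. Of the 8 member entries 6 held GGGCGG, against 32.7% of all 32851 promoters in the table. CCAAT was found once before Xrcc5 and in 2 of the 8 entries (Xrcc5 and Atf7ip), against 33.8% of all. The E2F-type letters TTTCGCGC or TTTGGCGC, the NRF1-type CGCATGCG and the ETS-type CCGGAAG were found in 0 of the 8 entries, against 0.654%, 1.55% and 6.91% of all promoters. Sirt1's 250 bases were 79.2% G or C and those of Xrcc5 44.8%. These matches describe letters in this window and do not show binding.

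Sirt1 and Parp1 were the members called higher in Aire-expressing GFP+ cells than in GFP- cells at both ages. Sirt1 was about 3-fold higher (3.02-fold in adults and 3.18-fold in perinates). Xrcc5 was the member with the largest difference at any step, 3.72-fold higher in perinate than in adult GFP- cells. No member passed for KO in adults, while in perinates Parp1, Xrcc5 and Xrcc6 were called higher and Mbd1 lower. Those calls were fragile: without perinate WT array 5, only Xrcc6 was called. How they depend on perinate KO arrays 2 and 3, low in Uty, is given with each gene. A second, dimmer probe set of Atf7ip was called higher in KO cells at both ages (0.48 in adults and 0.53 in perinates). Those 2 calls were not rerun with arrays left out. Top1 passed the test in 0 of the 9 comparisons.

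Each count of members is read against the share of all 13842 genes called in the same comparison. For GFP in adults 3 members were called, where 44.9% of genes were called: Parp1 and Sirt1 higher (24.7% of genes) and Atf7ip lower (20.1%). For GFP in perinates 4 were called (43.5% of genes), with Parp1, Sirt1 and Mbd1 higher (23%) and Xrcc5 lower (20.5%). Xrcc5 was the 1 member called for the difference of the GFP effect between ages (20% of genes, 9.28% lower and 10.7% higher). For KO in adults 0 of the 9 were called (19.9% of genes, 9.06% higher and 10.8% lower). For KO in perinates 4 were called (26.5% of genes), 3 of them higher (13.5%) and 1 lower (13%). The difference of the KO effect between ages was called for 0 members (1.21% of genes, 0.722% higher and 0.484% lower). For perinates against adults, 2 members were called in WT GFP+ cells (22.2% of genes), Mbd1 higher (8.52%) and Sirt1 lower (13.6%). In GFP- cells 3 were called (46.4%), Xrcc5 and Hipk2 higher (22.2%) and Sirt1 lower (24.2%). In KO cells 2 were called (26%), Prkdc higher (13.4%) and Sirt1 lower (12.7%). With 9 members, no share of theirs was read as a result about the set. The median log2 difference of the members was 0.31 for KO in perinates, against 0.09 over all genes, and 0.05 for GFP in adults, against 0.02. Comparisons that share a group are not independent of each other. In bulk RNA, fewer cells of a type and less RNA per cell cannot be told apart.

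**Figure D1:**
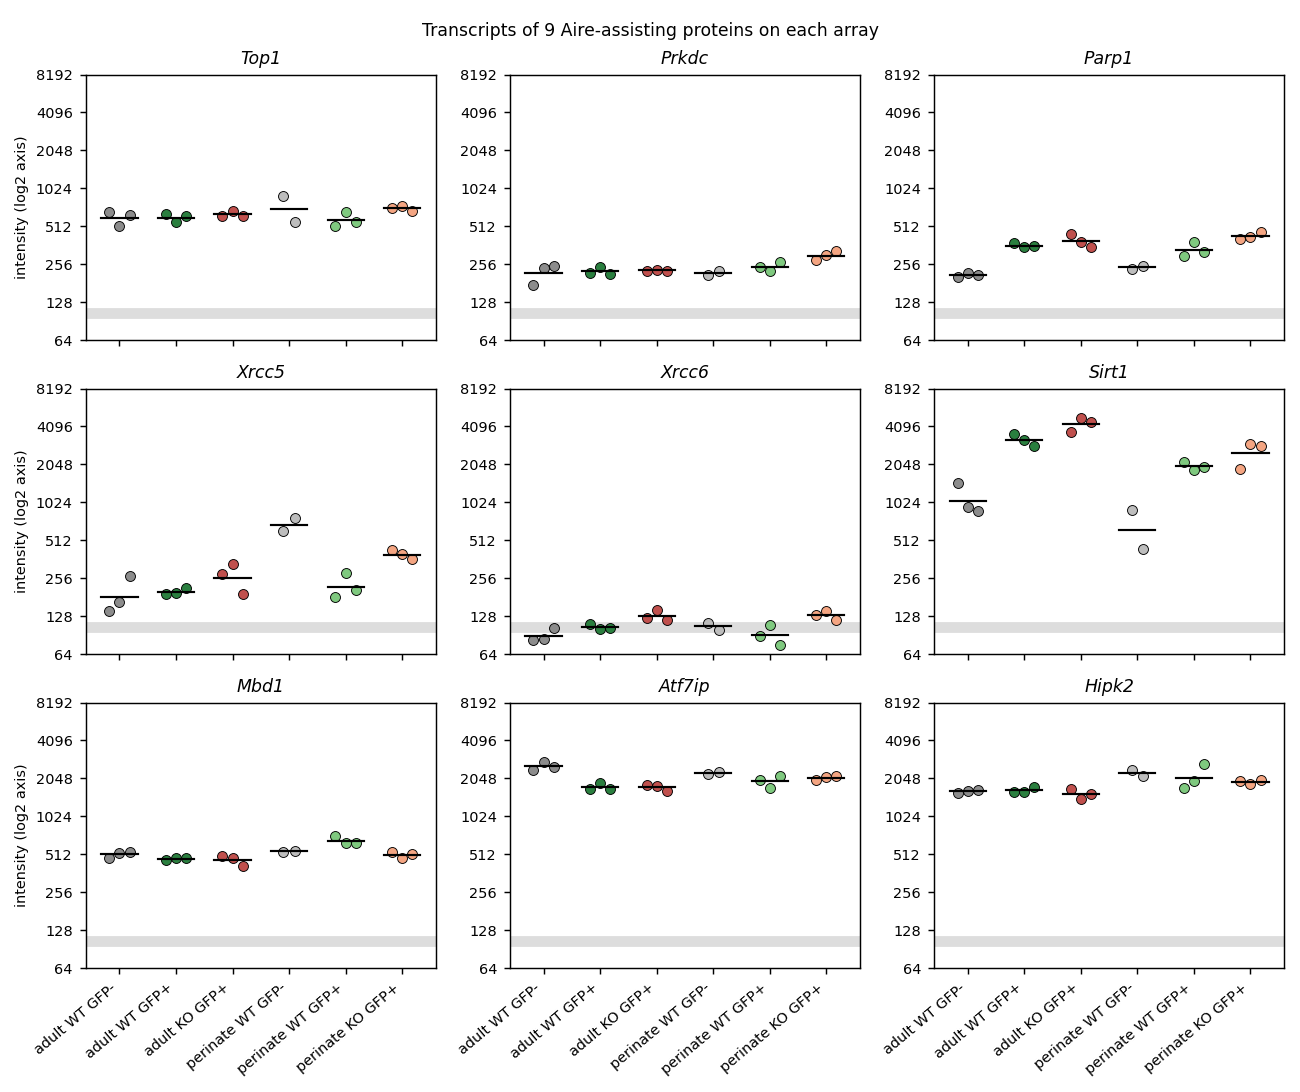
Intensity of each member on each of the 17 arrays (log2 axis, the same in each of the 9 panels), grouped by age, genotype and GFP. Points are arrays in order of their number, lines are means of the log2 values, and the grey band spans the 40th percentiles of the arrays (96.16 to 112.1). Sirt1 lies between 2849 and 4814 on the adult GFP+ arrays and at or below 1453 on all GFP- arrays, and the 2 perinate GFP- arrays of Xrcc5 (605.1 and 764.3) stand above all others.

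Top1, which relaxes supercoiled DNA by cutting 1 strand, varied little between groups. It read 661.4, 518.1 and 629.4 in adult GFP- cells (arrays 6, 7 and 8) and 639.4, 548.7 and 615.7 in GFP+ cells of WT adults. Adult KO cells gave 622.8, 677 and 618.6. In perinates it read 893.4 and 549.8 in GFP- cells, 511.5, 667.4 and 555.4 in WT GFP+ cells and 720.2, 734.5 and 677.7 in KO cells. The perinate KO arrays lay above the perinate WT GFP+ arrays without overlap, but the log2 difference of 0.31 (95% interval -0.02 to 0.63) missed the threshold (adjusted p = 0.144, limma). The 2 perinate GFP- arrays lay farther apart than the arrays of any other group. The interval for GFP in adults ran from -0.32 to 0.32 around a difference of 0.00, so a change of up to about that size could not be seen.

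Prkdc encodes the catalytic subunit of DNA-PK, which Ku (Xrcc5 and Xrcc6) recruits to broken DNA ends. It read 175.6 to 245.6 in adult GFP- cells, 215.8 to 242.5 in GFP+ cells of WT adults and 227 to 231.5 in KO adults. In perinates it read 210.4 and 225.4 in GFP- cells, 241.5, 227 and 265.2 in WT GFP+ cells and 273.8, 301.4 and 324.1 in KO cells. The perinate KO arrays were the highest of all 17. Prkdc rose from adult to perinate KO cells by 0.39 ± 0.12 on the log2 scale (± SE, adjusted p = 0.0254, limma). It did not pass for KO against WT in perinates (0.29, adjusted p = 0.0799). The age call was lost without any of adult KO arrays 1, 2 and 3 (0.38, 0.40 and 0.38, adjusted p = 0.0573, 0.0586 and 0.0673) or perinate KO arrays 2 and 3 (0.38 and 0.33, adjusted p = 0.066 and 0.101). Without both of those perinate arrays together it was 0.26 (adjusted p = 0.36).

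Xrcc5 encodes Ku80. It read 139.9, 164.5 and 264.8 in adult GFP- cells and 192.1, 194 and 213.7 in adult WT GFP+ cells, which overlap. In perinate GFP- cells it read 605.1 and 764.3, above every other array of the study. In perinate WT GFP+ cells it was back at 183, 280.5 and 206.5. GFP+ cells were thus lower than GFP- cells by 3.1-fold in perinates (-1.63 ± 0.25 log2, adjusted p = 4.58e-05, limma) and did not differ detectably in adults (0.13, adjusted p = 0.663). The difference between those effects was itself called (-1.76 ± 0.33 log2, adjusted p = 0.00126, limma). Xrcc5 was 3.72-fold higher in perinate than in adult GFP- cells (1.90 ± 0.25 log2, adjusted p = 9.73e-06, limma). All 3 calls kept with each array of the groups compared left out in turn.

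The perinate GFP- arrays differ from the rest in cell type markers too. Over the 5 cortical epithelial markers the summed intensity was 14070 to 14230 there, while adult GFP- arrays summed to 6516 to 8088 and perinate WT GFP+ arrays to 6777 to 11280. Such sums, here and below, weight bright probe sets most. In this one Ctsl alone read 8237 to 8885 on the perinate GFP- arrays and 2147 to 4048 on the adult ones. Of the 5, 4 were called higher in perinate than adult GFP- cells and 1 lower. In that comparison, used for the counts below too, 22.2% of all genes were called higher and 24.2% lower. Prss16, a cortical protease, read 3099 and 3286 against 409.2 to 485.7. Ccl25 of that list went the other way, at 1263 and 1593 against 3047 to 3383. Summed medullary markers were lower, 20050 to 22920 against 26660 to 29070 (0 of 10 higher, 6 lower). All 5 haematopoietic markers with a probe set lay below the 40th percentile on both arrays, Ptprc at 81.69 and 82.98. The 20 cell cycle markers summed to 12980 to 13250 against 5008 to 6243 (17 higher, 0 lower). The Ly51- gate of the sort is meant to remove cortical epithelium, which carries Ly51. The part of cortical or cycling cells in the Xrcc5 result was not tested.

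In KO cells, Xrcc5 read 274.9, 329.4 and 190.9 in adults and 425.8, 395.1 and 362.6 in perinates. The perinate KO arrays all lay above the perinate WT GFP+ arrays, by 1.79-fold (0.84 ± 0.22 log2, adjusted p = 0.0104, limma). In adults the groups overlapped and the difference of 0.37 did not pass (adjusted p = 0.261). The perinate call was lost without WT array 5 (0.71, adjusted p = 0.0563) and without KO arrays 2 and 3 together (0.96, adjusted p = 0.0962), where the size did not shrink. The KO effect was not shown to differ between ages (0.47, 95% interval -0.19 to 1.13, adjusted p = 0.464).

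Xrcc6 encodes Ku70, the other subunit of the heterodimer. It was dim: its probe set passed the 40th percentile on only 9 of the 17 arrays. It read 83.08, 84.78 and 102.4 in adult GFP- cells, 111.4, 101.6 and 103.7 in GFP+ cells of WT adults and 123.2, 142.6 and 118.6 in KO adults. In perinates it read 112.5 and 100 in GFP- cells, 88.98, 109.5 and 75.86 in WT GFP+ cells and 130, 140.5 and 120.1 in KO cells. KO arrays lay above WT GFP+ arrays without overlap at both ages. All 6 KO arrays were above that percentile, but of the perinate WT GFP+ arrays only array 6 was, so the difference is set against a level mostly at background and its size is uncertain. The perinate difference passed (0.52 ± 0.13 log2, adjusted p = 0.00742, limma) and the adult one did not (0.28, adjusted p = 0.155). The call kept with each array left out, but without KO arrays 2 and 3 together it was lost at the same size (0.52, adjusted p = 0.116). Xrcc5 and Xrcc6 were correlated at r = 0.50 over the 17 arrays, a description only, since all pairs share the arrays.

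Parp1, which senses breaks and builds poly-ADP-ribose chains, was higher in Aire-expressing cells. It read 201.3, 218.9 and 209.9 in adult GFP- cells against 374.4, 347.7 and 358 in adult WT GFP+ cells, and 233.9 and 249.2 against 296.2, 385.5 and 322.4 in perinates. The groups did not overlap at either age. GFP+ cells were 1.71-fold higher in adults (0.78 ± 0.11 log2, adjusted p = 2.83e-05, limma) and 1.38-fold higher in perinates (0.46 ± 0.12, adjusted p = 0.00605). The perinate call was lost without GFP- array 1 (0.42, adjusted p = 0.0506) and with only the groups compared in the fit (0.46, 0.0575). The effects were not shown to differ between ages (-0.32, 95% interval -0.67 to 0.04, adjusted p = 0.204).

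Parp1 read 443.1, 383 and 353.3 in adult KO cells, overlapping WT, and 402.1, 419.2 and 464.3 in perinate KO cells, above all perinate WT GFP+ arrays. The perinate KO difference was 1.29-fold (0.36 ± 0.11 log2, adjusted p = 0.0235, limma). It was lost with quantile normalization (0.24, adjusted p = 0.0962), with only the groups compared in the fit (0.36, 0.066), without WT array 5 (0.28, 0.117) or 7 (0.34, 0.0632) and without KO array 2 (0.38, 0.056) or 3 (0.30, 0.104). Without both KO arrays 2 and 3 it was 0.27 (adjusted p = 0.35).

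Cell cycle markers moved with these groups. Their summed intensity was 13250 to 14360 in adult WT GFP+ cells where adult GFP- cells had 5008 to 6243 (20 of 20 higher, against 24.7% of all genes). In perinates it was 14730 to 20790 against 12980 to 13250 (9 of 20 higher, against 23% of all genes). In perinate KO cells it was 22270 to 24970, above WT GFP+ (12 of 20 higher and 0 lower, against 13.5% and 13% of all genes). KO array 1 alone summed to 24970, and without arrays 2 and 3 the list median was 0.54, against 0.07 over all genes. Mki67, a marker of cycling cells, read 1833 to 2052 in perinate KO cells and 1244 to 1681 in WT. Of 5 fibroblast markers, 2 were higher and 1 lower in perinate KO than WT cells (13.5% and 13% of all genes), with a median difference of -0.15. Without KO arrays 2 and 3 the median of the 4 markers then tested was -0.35. Dcn read 4207 to 4346 against 2906 to 3759, while Col1a1 read 168.3 to 181.9 against 373.8 to 420.8. Of 3 tested haematopoietic markers 2 were lower in KO than WT GFP+ cells at both ages (10.8% of all genes in adults and 13% in perinates). In WT, 2 were higher in GFP+ than GFP- cells at both ages (24.7% and 23%). These markers were dim: Adgre1 lay below the 40th percentile on every KO array and Csf1r on every perinate KO array. Ptprc overlapped between KO and WT at both ages. Without KO arrays 2 and 3, the median of the 3 for perinate KO against WT was -0.79, against 0.07 over all genes. The part of these cells in the Parp1, Xrcc5, Xrcc6 and Mbd1 results was not tested.

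Sirt1, an NAD-dependent deacetylase, had the widest range of the 9 members, 6.88-fold between its highest and lowest group. It read 1453, 933.9 and 870.4 in adult GFP- cells against 3555, 3216 and 2849 in adult WT GFP+ cells. In perinates it read 885.5 and 436 against 2134, 1855 and 1957. No GFP+ array overlapped a GFP- array of its age. GFP+ cells were 3.02-fold higher in adults (1.60 ± 0.24 log2, adjusted p = 4.29e-05, limma) and 3.18-fold higher in perinates (1.67 ± 0.27, adjusted p = 7.31e-05). Both calls kept under each alternative run. The effects were not shown to differ between ages, with a difference of 0.08 and a 95% interval of -0.68 to 0.83 (adjusted p = 0.916).

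In KO cells Sirt1 read 3683, 4814 and 4411 in adults and 1880, 2973 and 2861 in perinates. Adult KO arrays lay above WT without overlap, but the difference of 0.42 did not pass (adjusted p = 0.236, limma). In perinates KO and WT overlapped (0.35, adjusted p = 0.286). By group mean the order from highest was adult KO, adult WT GFP+, perinate KO, perinate WT GFP+, adult GFP- and perinate GFP-. Of these neighbours, adult WT GFP+ and perinate KO, perinate KO and perinate WT GFP+, and the 2 GFP- groups overlapped on their arrays.

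Sirt1 was lower in perinates than in adults in all 3 age comparisons, by 1.61-fold in WT GFP+ cells (-0.69 ± 0.24 log2, adjusted p = 0.0466, limma), 1.70-fold in GFP- cells (-0.77 ± 0.27, adjusted p = 0.0257) and 1.70-fold in KO cells (-0.76 ± 0.24, adjusted p = 0.026). In GFP- cells the ages overlapped. The WT GFP+ call was lost without any of its 6 arrays, with values from -0.77 to -0.61, and with quantile normalization (-0.65, 0.0505), no filter (-0.69, 0.0523) or a trended robust prior (-0.69, 0.0517). The GFP- call was lost with array weights (-0.67, 0.059), with only the groups compared in the fit (-0.77, 0.0887), without perinate array 2, where the difference shrank to -0.26 (adjusted p = 0.49), or without adult array 6 (-0.54, 0.113). The KO call was lost without adult array 2 (-0.68, 0.0942) or 3 (-0.74, 0.0709) or perinate array 1 (-0.55, 0.132), and kept without perinate arrays 2 and 3 (-1.19, 0.0258).

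**Figure D2:**
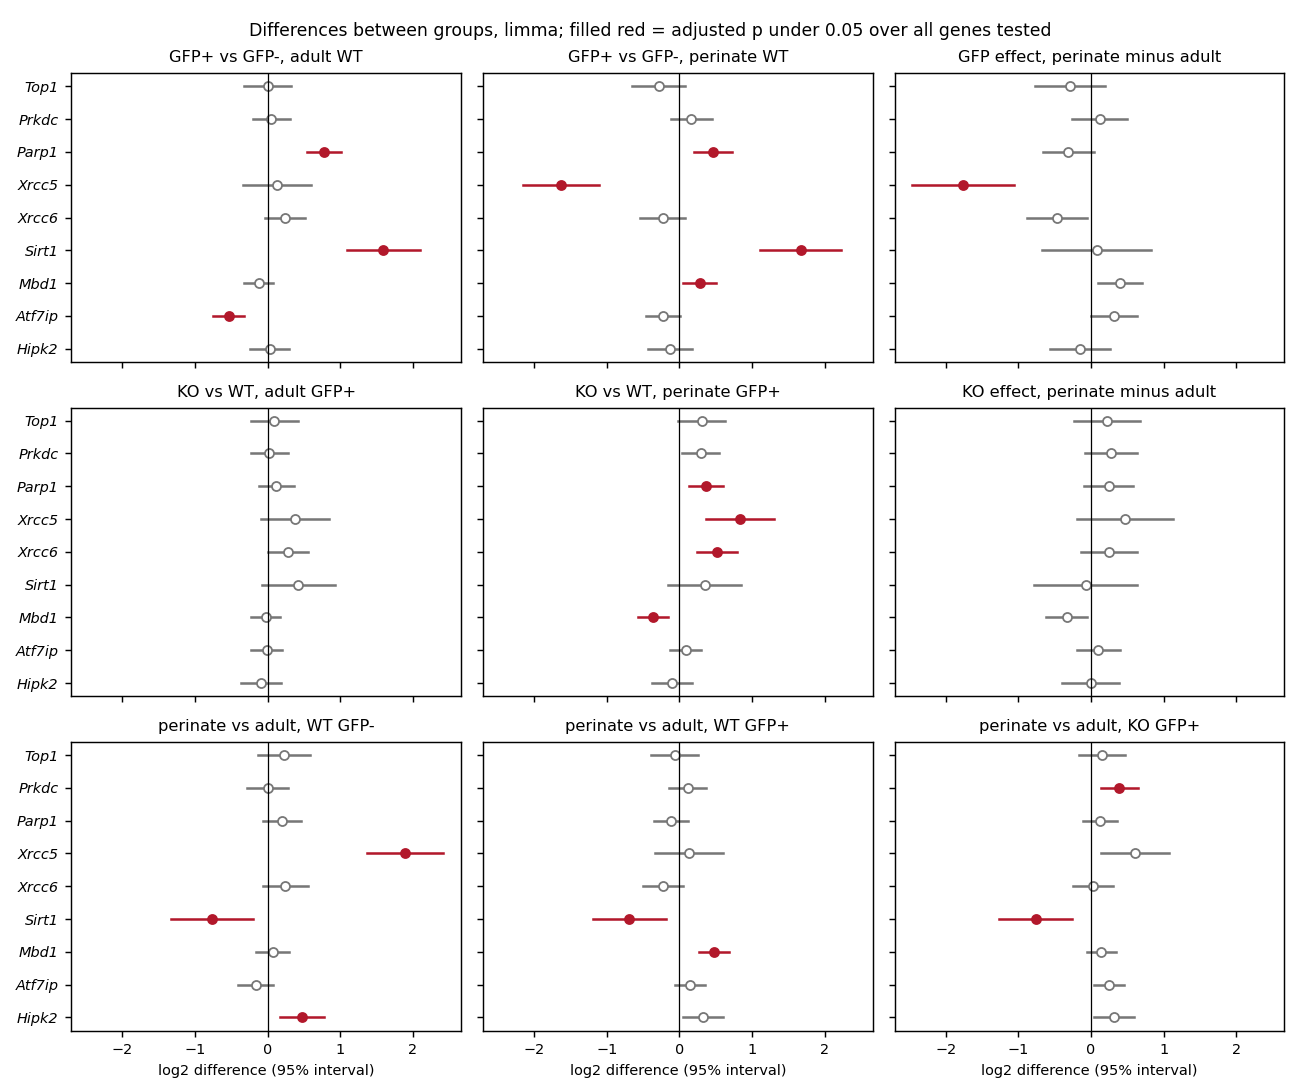
Log2 differences (points) with 95% intervals (lines) from limma for the 9 members in the 9 comparisons, 1 panel each, with called differences in red. Xrcc5 lies at -1.63 for GFP in perinates and 0.13 in adults, while Sirt1 lies at 1.67 and 1.60.

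Mbd1 binds methylated CpG and, with Atf7ip, has been described to bring Aire to silent chromatin. It read 456.9, 475.5 and 479.8 in GFP+ cells of WT adults and 712.6, 631.9 and 624.4 in perinate WT GFP+ cells. KO cells gave 499.6, 476.7 and 412.4 in adults and in perinates 535.2, 482.6 and 510.8. GFP- cells read 479.2, 528.6 and 532.2 in adults and 537.1 and 540.6 in perinates. The 3 perinate WT GFP+ arrays were the highest of all 17. Mbd1 was 1.39-fold higher in perinate than adult WT GFP+ cells (0.48 ± 0.10 log2, adjusted p = 0.00214, limma), a call that kept under each alternative run. Perinate KO cells were 1.29-fold below perinate WT (-0.36 ± 0.10, adjusted p = 0.0103), and adults did not pass (-0.03, adjusted p = 0.87).

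The perinate KO call of Mbd1 was lost without WT array 5 (-0.30, adjusted p = 0.0559), without KO array 2 (-0.33, 0.0529) and without KO arrays 2 and 3 (-0.29, 0.251). The KO effect was not shown to differ between ages (-0.34, adjusted p = 0.217, limma). GFP+ cells were also above GFP- cells in perinates (0.28 ± 0.11, adjusted p = 0.0421), a call lost without GFP- array 1 (0.28, 0.127) or 2 (0.29, 0.116) and without WT GFP+ array 5 (0.22, 0.14) or 6 (0.31, 0.0514), and lost with quantile normalization (0.26, 0.0514), median centring (0.26, 0.059), array weights (0.28, 0.112) and only the groups compared in the fit (0.28, 0.18).

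Atf7ip, the partner of Mbd1 and of the methyltransferase Setdb1, went the other way from Sirt1 in adults. It read 2379, 2747 and 2532 in GFP- cells of adults against 1699, 1895 and 1677 in their GFP+ cells and 1818, 1780 and 1622 in adult KO cells. In perinates it read 2232 and 2308 in GFP- cells, 1992, 1730 and 2135 in WT GFP+ cells and 1974, 2097 and 2130 in KO cells. GFP+ cells were 1.45-fold lower in adults (-0.54 ± 0.10 log2, adjusted p = 0.000331, limma), without overlap. In perinates the arrays did not overlap either, but the difference did not pass (-0.22, adjusted p = 0.119). A dimmer probe set of Atf7ip (132.8 to 253.7) was called for GFP in adults in the same direction (-0.37, adjusted p = 0.0384). It was also called higher in KO than WT in adults (0.48, adjusted p = 0.0188) and perinates (0.53, adjusted p = 0.00988), where the brighter one was not (-0.01 and 0.09, adjusted p = 0.944 and 0.538). The probe sets thus disagree on the KO.

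Hipk2, a nuclear serine/threonine kinase, was higher in perinate than in adult GFP- cells, as was Xrcc5. It read 1573, 1641 and 1648 in adult GFP- cells and 2386 and 2125 in perinate GFP- cells. In WT GFP+ cells it read 1605, 1604 and 1745 in adults and 1711, 1936 and 2657 in perinates, and in KO cells 1695, 1415 and 1546 in adults and 1954, 1849 and 1982 in perinates. The GFP- difference was 1.39-fold (0.48 ± 0.15 log2, adjusted p = 0.0129, limma), and was lost without perinate array 1 (0.39, adjusted p = 0.106). In WT GFP+ and KO cells the differences of 0.32 and 0.32 did not pass (adjusted p = 0.0833 and 0.0834).

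Genes of the same pathways were followed in 7 lists of 61 genes, of which 56 had a probe set and 54 were tested. Relatives of Top1 (topoisomerases and their repair, 7 tested) held the largest differences between GFP+ and GFP- cells. Tdp1, which removes Top1 trapped on DNA, was higher in GFP+ cells by 1.82 ± 0.14 log2 in adults (adjusted p = 4.06e-08, limma) and 1.42 ± 0.15 in perinates (adjusted p = 1.11e-06). On the adult WT arrays Tdp1 ran from 1302 to 1418 with GFP and from 348 to 494.9 without. Top2a, the topoisomerase of dividing cells and also a cell cycle marker here, was higher by 1.91 ± 0.21 in adults and 0.79 ± 0.24 in perinates. In the list, 4 were called higher and 0 lower in adults (24.7% and 20.1% of all genes), and 2 and 1 in perinates (23% and 20.5%).

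In the end-joining list (11 tested), 6 were called higher and 0 lower in perinate KO against WT cells, against 13.5% of all genes called higher and 13% lower. The largest were Atm (0.65), Rad50 (0.57), Lig4 (0.42) and Mre11a (0.35), with adjusted p of 0.00877, 0.0245, 0.014 and 0.0445 (limma). The list's median was 0.33, against 0.09 over all genes. Without perinate KO arrays 2 and 3, a setting added for the lists after the data were seen, 0 of the 11 were called, where 1.18% of all genes were called higher and 7.19% lower. Atm was then 0.43 (adjusted p = 0.313), Rad50 0.33 (0.461), Lig4 0.31 (0.301) and Mre11a 0.35 (0.301), and the list's median 0.31, against 0.07. For adult KO 1 was called higher, Xrcc4 (0.54), against 9.06% of all genes. Atm, the kinase that signals double-strand breaks, read 203.3 to 263.3 in perinate KO cells and 118.2 to 179.2 in WT. Cell cycle markers moved with this group, as given above. These lists were chosen with results of these arrays known, so the count describes them and does not set them apart.

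**Figure D3:**
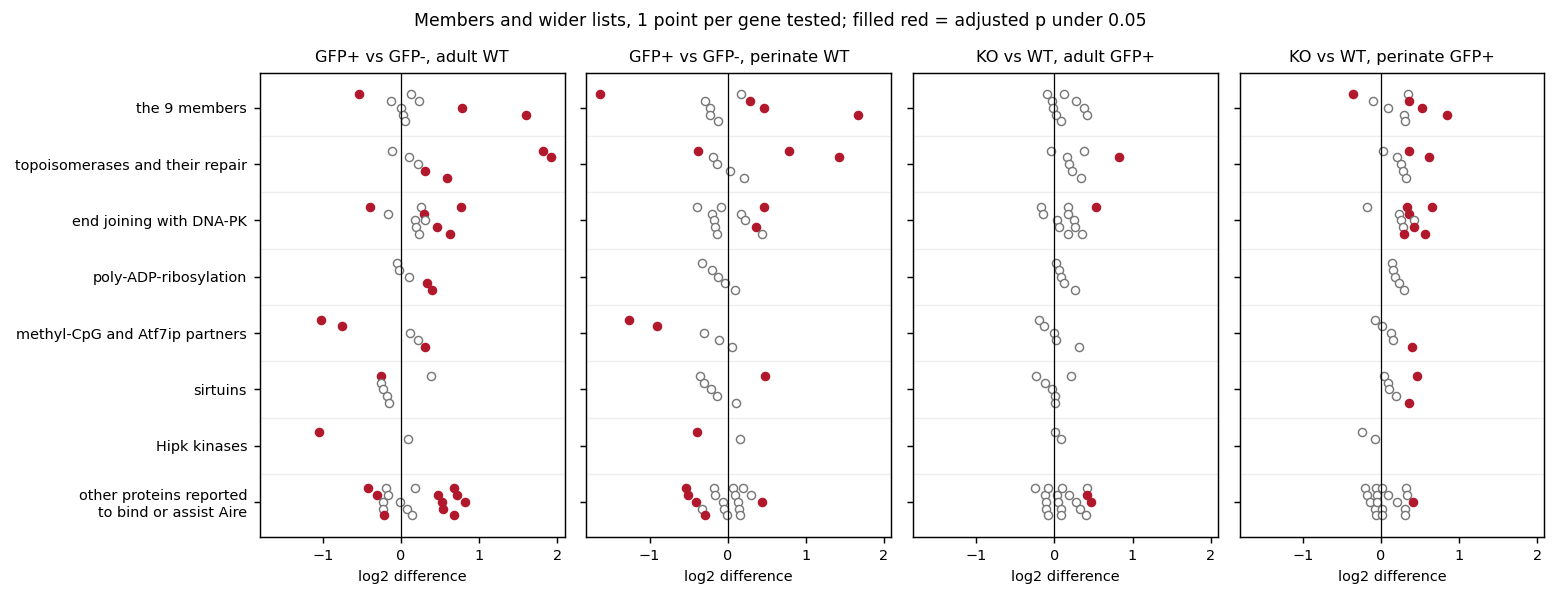
Log2 differences of the 9 members and of the tested genes in the 7 pathway lists, 1 point per gene, for GFP+ against GFP- and KO against WT cells at both ages, with called genes in red. Tdp1 and Top2a lie at 1.82 and 1.91 for GFP in adults, and Mbd2 and Mbd6 lie at -0.75 and -1.03.

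Of the genes of poly-ADP-ribosylation around Parp1 (5 tested), Parp2 (0.40) and Parp3 (0.33) were called higher in GFP+ cells in adults (24.7% of all genes). For KO 0 were called in adults or perinates (19.9% and 26.5% of all genes). Parp3 was lower in perinates than adults in WT GFP+ (-0.59), GFP- (-0.36) and KO (-0.57) cells, with adjusted p of 0.00103, 0.0204 and 0.00109 (limma). Without perinate KO arrays 2 and 3 the last was -0.82 (0.0013). Among methyl-CpG proteins and partners of Atf7ip (5 tested), Mbd2 and Mbd6 were lower in GFP+ cells at both ages. Mbd2 differed by -0.75 in adults and -0.91 in perinates, and Mbd6 by -1.03 and -1.27 (limma, adjusted p from 1.85e-05 to 0.000112). Setdb1, which writes repressive histone methylation, was higher in perinates in WT GFP+ (0.34), GFP- (0.51) and KO (0.45) cells, with adjusted p of 0.0337, 0.00288 and 0.00641 (limma). Without perinate KO arrays 2 and 3 the last did not pass (0.50, 0.0616). Of the sirtuins (6 tested), Sirt2 was called for GFP in adults, at -0.26, and Sirt7 in perinates, at 0.48. In GFP- cells Sirt7 fell from adult to perinate by 1.21 (adjusted p = 9.08e-07, limma). Hipk1 was lower in GFP+ than GFP- cells, at -1.06 in adults (adjusted p = 3.39e-07, limma) and -0.40 in perinates (adjusted p = 0.00728).

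Among 18 tested other proteins reported to bind or assist Aire, GFP+ cells were higher for 7 and lower for 3 in adults (24.7% and 20.1% of all genes), and higher for 1 and lower for 4 in perinates (23% and 20.5%). The cohesin genes Smc3 (0.82) and Rad21 (0.68) and the chromatin protein Dek (0.71) were the largest in adults. The coactivator Crebbp (-0.51) and the histone chaperone Daxx (-0.53) were lower in perinates. For age in GFP- cells 12 were higher and 1 lower, against 22.2% and 24.2% of all genes, with Dek (0.79), Trim28 (0.78) and Smc3 (0.78) the largest. Over all 7 lists, 12 of 54 were called higher and 0 lower for KO in perinates (13.5% and 13% of all genes) and 4 and 0 for KO in adults (9.06% and 10.8%). The median of the 54 for KO in perinates was 0.20, against 0.09 over all genes. Without perinate KO arrays 2 and 3, which leaves 1 array in that group, it was 0.17, against 0.07. For GFP, 18 were higher and 8 lower in adults (24.7% and 20.1%), and 6 and 8 in perinates (23% and 20.5%). The cell cycle markers given above moved in the same comparisons, and their part was not tested.

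For each member, the tested genes nearest in pattern were found by Pearson correlation of log2 intensity over the 17 arrays, which share the groups and so give no independent points. Sirt1 was nearest to Hspa5 (r = 0.98), AI504432 (0.98) and Ranbp2 (0.97), and Xrcc5 to Rhno1 (0.97), Fbxo10 (0.96) and Prkacb (0.96). Parp1 was nearest to Nup85 (0.97), Nipsnap1 (0.96) and Stoml1 (0.96), and Atf7ip to Ambra1 (0.95), Dennd6b (0.95) and Fyco1 (0.93). Hipk2 was nearest to Ubap2l (0.95), Xrcc6 to Mrps35 (0.92), Prkdc to Dennd1b (0.88), Top1 to Cfl2 (0.87) and Mbd1 to Ankrd13a (0.85). Among the members, Sirt1 correlated with Parp1 at 0.77 and with Atf7ip at -0.77. Top1 and Mbd1, which varied least, were also the ones with the weakest nearest patterns.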

How the data were processed

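RNA of 17 sorted samples in 6 groups was measured on 1 array each. The deposited values are linear probe set intensities, made by the authors with RMA in Affymetrix Power Tools, per the submitters' processing notes, with versions not given in the sources used here. Their log2 was taken with no pseudocount. Of 24922 probe sets, 21425 carried 1 symbol, 1399 several and 2098 none, and the first kind named 19752 genes. Genes above the 40th percentile of the array (96.16 to 112.1) on at least 2 arrays were tested (13842). All 9 comparisons came from 1 limma 3.58.1 model (R 4.3.3) of the 6 group means with Benjamini-Hochberg adjustment. The steps were run on simulated data with independent normal noise, which lacks variation shared between samples and so does not check the calls against it. Array number limits the precision, and 2 or 3 arrays make a group.

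Members and lists were chosen with earlier results of these data known. The genes named were all members, up to 4 called genes per list and comparison with the largest difference, and the 3 tested genes nearest to each member; other list genes appear only as counts. Alternatives were quantile normalization, median centring, an offset, other filters, array weights, a trended robust prior, fits of only the groups compared, leaving out each array, and leaving out perinate KO arrays 2 and 3 (for the lists, chosen after seeing the data). Adult GFP+ and GFP- samples share the numbers 6, 7 and 8 in the labels. Same-numbered samples deviated together (r = 0.188 to 0.503, against -0.439 to 0.097 for other numbers). Deviations were taken around each group's mean, so these correlations are not independent of each other. The numbers may mark pairs, which no label states. All values printed for that comparison come from the model without pairing, and a replicate block was run only as an alternative. The replicate block kept the 3 member calls of that comparison. No 2 arrays held identical values.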

Additional observations from a re-analysis of the deposited data

Results flagged for a closer look

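The effect of GFP (GFP+ minus GFP-, log2) was called as different between perinates and adults for 1 of the 9 members, Xrcc5. Of the 54 pathway list genes tested, 2 were called higher and 6 lower, against 10.7% and 9.28% of all genes. Each was a test of the difference itself (limma interaction term, adjusted over 13842 genes, of which 20% were called). For Xrcc5 the difference was -1.76 (adjusted p = 0.00126), from 0.13 in adults to -1.63 in perinates. For Top2a it was -1.12 (0.0191), from 1.91 to 0.79, and for Atm -0.85 (0.0222), from 0.46 to -0.39. Mbd4 gave -0.61 (0.0162), Top1mt -0.60 (0.0437), Trim28 -0.58 (0.0256) and Hnrnpl -0.43 (0.0415). Hipk1 gave 0.66 (0.00413), from -1.06 to -0.40, and Sirt7 gave 0.66 (0.0115), from -0.18 to 0.48. Each rests on the same 2 perinate GFP- arrays, whose marker levels are given with Xrcc5. The reporter transcript G6pc2 and Aire itself also differed in this test, as given above.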

How the results depend on the processing

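Of the 19 member calls, 181 values under the settings other than leave-one-out gave 164 calls with the same direction and 17 lost calls. Leaving out arrays in turn gave 83 of 112 kept and 29 lost, and no direction reversed. The number of members called moved over 1.5 times as follows. With only the groups compared in the fit it was 1 for KO in adults, 2 for GFP in perinates and 4 for age in KO cells. All genes called were then 3048, 4462 and 4044 of 13842, against 2751, 6017 and 3604 in the main run. The member count was 2 for the GFP effect between ages with quantile normalization (3127 genes called, against 2763). For age in WT GFP+ cells it was 1 with no filter (3465 genes of 19752) and 1 with a trended robust prior (3074), against 3067 of 13842 genes in the main run. For age in KO cells it was 5 with array weights (5243 genes, against 3604). Without perinate KO arrays 2 and 3 the member count fell for KO in perinates and for age in KO cells, with 1 array left in that group. Leaving out 1 array gave 0 to 0 for KO in adults, 1 to 4 for KO in perinates, 0 to 0 for the KO effect, 3 to 3 and 2 to 5 for GFP in adults and perinates, 1 to 2 for the GFP effect, and 1 to 2, 2 to 3 and 0 to 1 for age in WT GFP+, GFP- and KO cells. In those runs all genes called ranged from 2395 to 3671 for KO in perinates and from 2564 to 3198 for age in KO cells. The cause of the moves in member counts was not tested.

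The replicate block changed no member call for GFP in adults (3 called). The KO numbers share only a number across ages (r = 0.039 to 0.059 for same-numbered samples); there, with only the groups compared in the fit, the block gave 3 called and the fit without it 4. Median centring moved the share of higher calls from 50.8% to 66.7% for KO in perinates and from 45.6% to 61.2% for KO in adults, while leaving out perinate KO arrays 2 and 3 moved it to 14.1% for KO in perinates (162 of 1153 called). Quantile normalization moved it from 38.4% to 49.4% for age in WT GFP+ cells. The 60th percentile filter leaves Xrcc6 untested.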
